A study of Mus musculus with 117 samples.

Results

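The stable state 8 regions are stretches of the mouse autosomes that carry the same chromatin state, number 8 of 14, in nearly all of 9 inbred strains. The members are 200-bp bins in state 8 in at least 7 of the 9 strains' hepatocytes, with adjacent bins merged. This gave 37219 bins in 12403 regions, 7.44 Mb in all, which is 0.302% of the 12313718 autosomal bins and 15.9% of the 234731 bins in state 8 in at least 1 strain. The members were chosen by the state calls of column 4 in the 9 strains, so the number of strains in state 8 is a description of the members and not a finding.

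The study profiled histone marks by chromatin immunoprecipitation sequencing (ChIP-seq) in hepatocytes, the liver's parenchymal cells, of female mice aged 12 weeks. Each strain had 13 libraries, made from 3 mice with antibodies to H3K4me3, H3K4me1, H3K27ac and H3K27me3 plus 1 input, for 117 libraries in all. Of the strains, CAST/EiJ, PWK/PhJ and WSB/EiJ are derived from wild mice, and A/J, C57BL/6J, DBA/2J, NOD/ShiLtJ, NZO/HlLtJ and 129S1/SvImJ are classical laboratory strains; no genotype or treatment other than the strain is named. The authors' deposited files give 1 segmentation a strain, which combines its mice, so a strain is 1 value and no error within a strain can be given. The sequencing depth and the marks that define each state are not given in the sources used here, and state numbers serve only as names. In bulk chromatin, a state carried by fewer cells and a weaker mark in every cell cannot be told apart.

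A chromatin state is a recurring combination of histone marks along the genome. In general, H3K4me3 sits at the starts of transcribed genes, H3K4me1 and H3K27ac flank starts and mark enhancers, and H3K27me3 is laid down by Polycomb complexes over silent developmental genes. Starts of genes used in every cell type usually lie in CG-rich sequence, while many genes specific to a tissue start in CG-poor sequence with a TATA box.

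The letters of the regions themselves are not shown, since only sequences at gene starts were used. Shown first are up to 150 bases before the starts of 4 genes that hold 4 of the 5 longest regions downstream of the start, then those of 3 hepatocyte genes. Of the latter, Cyp2c29 holds regions far from its start, and Alb and Apoa1, chosen after their values were seen, have no stable state 8 bin within 3 kb. The sequences are from RefSeq, assembly GRCm38.p6 (the mm10 build), read 5′ to 3′ on the gene's strand, with CG dinucleotides in capitals.
Purb, chr11:6476077-6476226, minus strand: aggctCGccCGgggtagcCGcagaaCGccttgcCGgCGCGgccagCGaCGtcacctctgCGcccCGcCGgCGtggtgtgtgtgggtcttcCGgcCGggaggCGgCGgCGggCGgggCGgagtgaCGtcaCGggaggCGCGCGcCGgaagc
Gpbp1, chr13:111490129-111490278, minus strand: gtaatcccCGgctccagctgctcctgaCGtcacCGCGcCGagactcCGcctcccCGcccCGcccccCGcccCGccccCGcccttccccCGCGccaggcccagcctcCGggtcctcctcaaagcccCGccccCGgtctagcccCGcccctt
Crkl, chr16:17451835-17451984, plus strand: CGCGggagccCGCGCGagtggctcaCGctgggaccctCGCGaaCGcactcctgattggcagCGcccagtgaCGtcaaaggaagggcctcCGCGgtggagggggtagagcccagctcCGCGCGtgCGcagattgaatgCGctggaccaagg
Ppp2ca, chr11:52098674-52098823, plus strand: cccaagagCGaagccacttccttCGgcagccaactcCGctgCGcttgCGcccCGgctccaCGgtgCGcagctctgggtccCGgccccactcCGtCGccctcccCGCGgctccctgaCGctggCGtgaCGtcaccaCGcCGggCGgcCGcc
Cyp2c29, chr19:39286894-39287043, plus strand: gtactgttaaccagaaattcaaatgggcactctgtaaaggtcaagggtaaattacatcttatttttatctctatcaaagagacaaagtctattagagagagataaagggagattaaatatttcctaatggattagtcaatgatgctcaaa
Alb, chr5:90460720-90460869, plus strand: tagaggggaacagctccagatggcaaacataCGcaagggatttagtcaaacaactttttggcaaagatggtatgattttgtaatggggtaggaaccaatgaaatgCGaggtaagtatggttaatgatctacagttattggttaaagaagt
Apoa1, chr9:46228480-46228629, plus strand: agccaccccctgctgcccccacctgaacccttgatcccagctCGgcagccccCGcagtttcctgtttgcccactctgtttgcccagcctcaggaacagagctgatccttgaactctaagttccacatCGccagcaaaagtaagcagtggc
The stretches of Purb, Gpbp1, Crkl and Ppp2ca hold 26, 17, 18 and 20 CG dinucleotides, and those of Cyp2c29, Alb and Apoa1 hold 0, 2 and 3.

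The regions were short. Their median length was 400 bp and their mean 600.2 bp, and 4517 regions (36.4%) were a single bin. Regions of at least 10 bins numbered 474 (3.82%), and the longest spanned 4800 bp. Of the member bins, 14032 were in state 8 in all 9 strains, 11614 in 8 and 11573 in 7. Just outside the rule lay 12431 bins in state 8 in 6 strains. The other strains' states were alike on both sides of the threshold, with state 1 in 44.0% and 44.7% of the strain values outside state 8 at 6 and 7 strains, state 6 in 24.3% and 24.7%, and state 9 in 19.9% and 21.0%. In 1309 regions (10.6%) every bin was in state 8 in every strain.

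The regions were found beside the starts of protein-coding genes, mostly in the transcribed direction, and rarely at the start itself. Start positions came from the RefSeq table, which lists 20084 starts of 16456 protein-coding autosomal genes on 18 of the 19 autosomes. Of the 35976 member bins on those chromosomes, 65.0% lay within 3 kb of a listed start, against 4.39% of all bins. The share was 76.0% for bins in state 8 in all 9 strains, 54.2% for those in 7, 48.7% for the 12051 bins in 6 strains and 23.9% for bins in a single strain. A stable state 8 bin covered 11.7% of starts at 1.4 kb downstream, 4.43% at 1.4 kb upstream and 1.02% at the start itself.

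Taken over all starts, the peaks of the states around them lay at different distances. Stable state 3 peaked at the start, where it covered 37.1% of starts. State 1 peaked 0.8 kb downstream and 0.6 kb upstream, at 29.7% and 29.9% of starts, and state 9 peaked 2.6 kb downstream and 1.8 kb upstream, at 12.5% and 11.4%. The state 8 peak thus fell between those of states 1 and 9 on both sides. In the single strains' own segmentations, all state 8 bins peaked 1.51 kb ± 0.105 downstream (SD, n = 9 strains), with 16.8% ± 2.06 of starts covered there.

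**Figure D1:**
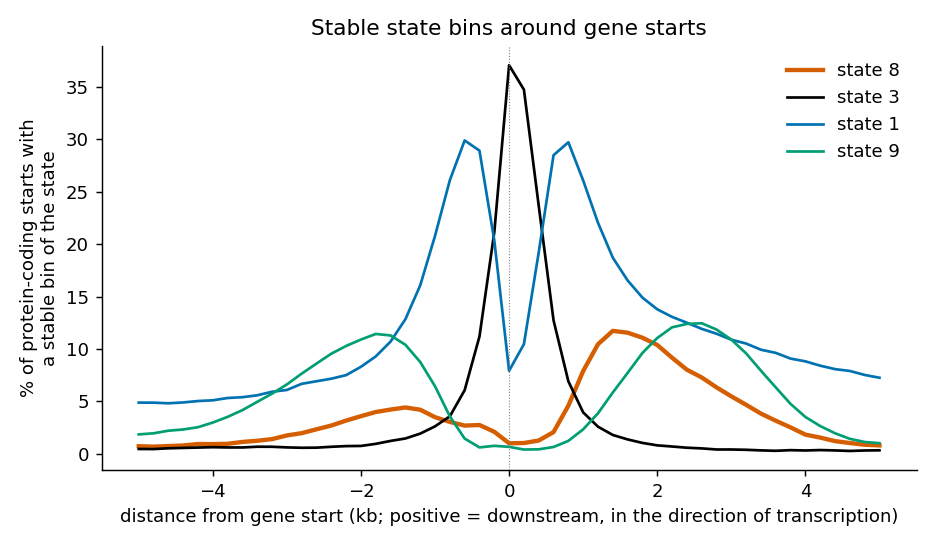
Percentage of 20084 protein-coding starts with a stable bin of states 8, 3, 1 or 9 (y axis) by distance from the start in kb (x axis, positive is downstream). State 8 reaches 11.7% at 1.4 kb downstream and 4.43% at 1.4 kb upstream, outside the peaks of states 3 and 1.

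Each region could also be read from its start-facing side to its far side. Among 8269 regions within 5 kb of a start, the neighbouring bin towards the start was in state 1 in 82.2% ± 4.24 of those not in state 8 (SD, n = 9 strains), and the bin on the far side was in state 1 in 16.5% ± 5.39. State 9 was the neighbour towards the start in 9.46% ± 1.89 and on the far side in 61.8% ± 12.1. Both differences had the same sign in 9 of 9 strains, at 65.7 and -52.3 percentage points (exact sign-flip permutation test over strains, two-sided, adjusted p = 0.0039 for each, the smallest this test can give). State 6 was also more frequent on the far side, at 12.6% ± 9.38 against 2.30% ± 2.82 (towards the start minus far side -10.3 points, 9 of 9 strains, exact permutation adjusted p = 0.0039). The same regions, chosen by the calls of all 9 strains, were read in each strain, and this order was chosen after the data were seen. These p-values therefore describe only how alike the 9 strains are. Taking the commonest state of the strains on each side, 4264 regions (51.6%) lay between state 1 and state 9, 1485 (17.96%) between state 1 on both sides, and 1020 (12.3%) between state 1 and state 6.

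Strains outside state 8 were mostly in state 1 at the edge nearest the start, and in a mix of states at the far edge. In 3657 regions of at least 3 bins within this distance, 84.3% of the strain values outside state 8 at the bin nearest the start were in state 1. At the farthest bin state 9 made up 40.6%, state 6 34.0% and state 1 18.7%. The middle bin was outside state 8 in 5.98% of strain values, the nearest in 11.8% and the farthest in 13.97%. These are descriptions of the calls the rule used.

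The downstream side carried more state 8 than the upstream side, and more so for the part that strains shared. For each strain, its state 8 bins were split into shared bins, in state 8 in at least 7 of the other 8 strains, and restricted bins, in at most 2 of the others. Between 1 and 3 kb from starts, shared bins covered 6.58% ± 0.275 of the bins downstream and 2.25% ± 0.0828 upstream (SD, n = 9 strains), a ratio of 2.93 that ran from 2.87 in PWK/PhJ to 2.98 in C57BL/6J. Restricted bins covered 2.03% ± 0.938 and 1.38% ± 0.735, a ratio of 1.53 from 1.23 to 1.90. The log2 ratio was higher for shared bins in 9 of 9 strains, by 0.94 ± 0.19 (SD; exact sign-flip permutation test, adjusted p = 0.0039). The strains' ranges did not overlap. At starts with no other listed protein-coding start within 10 kb the difference was 1.91 (exact permutation adjusted p = 0.0039). This test was chosen after the distance profile had been seen, and the shared bins are nearly the same bins in each strain, so the p describes only how alike the 9 strains are.

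Upstream regions were more frequent per start where another gene starts in the opposite direction, although most starts with one had no such neighbour listed. Only listed protein-coding starts were counted as neighbours, and 81.7% of protein-coding genes on these chromosomes had one. A start counted as lone may thus have an unlisted neighbour. Of the 3586 starts with a stable state 8 bin within 3 kb upstream, 1012 had a divergent protein-coding start within 1 kb upstream and 1950 had no other within 10 kb. Of 1648 starts with a divergent protein-coding start within 1 kb upstream, 61.4% had a stable state 8 bin within 3 kb upstream and 61.8% within 3 kb downstream. Both starts of a divergent pair are counted, and the upstream window of each overlaps the downstream window of its partner. The upstream and downstream shares of divergent starts are therefore not independent. Of 15106 starts with no other protein-coding start within 10 kb, 1950 (12.9%) had one upstream and 3777 had one downstream. Among starts with a stable state 3 bin, the upstream shares were 65.1% of 1524 divergent starts and 26.0% of 6065 lone starts. The downstream shares of the same starts were closer together, at 65.6% and 55.3%.

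The genes with such a region were largely genes with state 3 at the start. Of the 16456 genes, 5974 (36.3%) had a stable state 8 bin within 3 kb of a start and 7847 (47.7%) a stable state 3 bin. Of the latter, 5284 (67.3%) had both. By the window of 1 kb around either end of a gene, 3757 of 20661 protein-coding genes (18.2%) had a stable state 8 bin, and by 5 kb 8188 (39.6%). Requiring all 9 strains lowered the 3-kb count to 3975.

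CG content at the start went with the regions. The 300 bases at the start, 250 of them before it, held a median of 23 CG dinucleotides at 6122 starts with both stable states. The median was 21 at 3211 starts with state 3 alone and 4 at 9903 starts with neither. At 848 starts with state 8 alone it was 15, near the 14 of all starts. The share of starts with a stable state 8 bin within 3 kb was 4.69% with 0 to 4 CG dinucleotides, 26.3% with 5 to 14, 54.98% with 15 to 24 and 57.2% with 25 or more. Within starts that had state 3, the shares were 31.6%, 57.6%, 70.1% and 69.3%. The letters TATAA were sought on the gene's strand in the 50 bases before the start. They stood at 1.23% of starts with both states, 3.58% with state 3 alone and 4.48% with state 8 alone. The shares were 8.98% with neither and 5.56% of all starts. A match or its absence describes these letters and not the binding of a factor.

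The width of state 3 and the length of the gene went with it as well. Genes with 0.6 to 0.8 kb of stable state 3 within 3 kb of the start had a stable state 8 bin in 73.1% of 3091 cases, and genes with over 1.4 kb in 47.3% of 564. The shares between were 65.2% for 0.2 to 0.4 kb and 66.6% for 1.0 to 1.4 kb, so the widest class was the lowest. Wide state 3 leaves less room for another state in the same window, and its part in this was not tested. Among genes with state 3, 57.5% of those under 3 kb long had a region, 61.0% of those of 3 to 10 kb, 69.9% of those of 10 to 50 kb and 69.3% of longer genes.

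**Figure D2:**
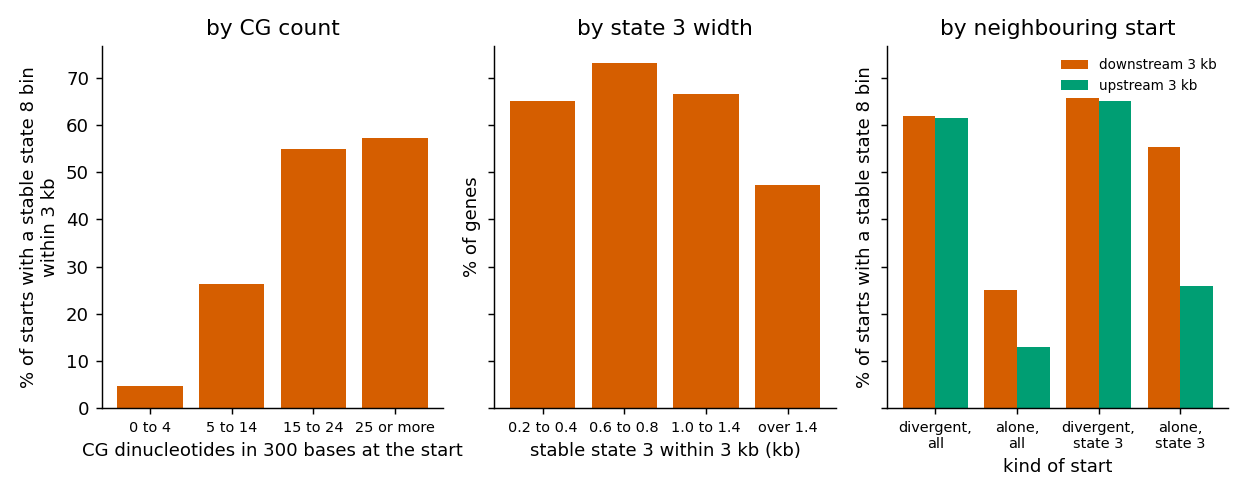
Percentage with a stable state 8 bin (y axes): starts by CG dinucleotides in 300 bases (left), genes by the width of stable state 3 within 3 kb of the start (middle), and starts by whether a divergent start lies within 1 kb or no other within 10 kb, for 3 kb downstream and 3 kb upstream (right; all starts, and those with stable state 3). The share rises from 4.69% to 57.2% with CG count, is lowest at 47.3% for the widest state 3, and upstream is 61.4% at divergent and 12.9% at lone starts. Only listed protein-coding starts count as neighbours.

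Listed genes that hepatocytes are known for lacked the regions within 3 kb of a listed start, although nearly all had state 3 there. Of 15 hepatocyte genes with a listed start, which encode plasma proteins and metabolic enzymes, 14 had stable state 3 within 3 kb and 0 had stable state 8, where 36.3% of all genes and 67.3% of genes with state 3 had it. The median stable state 3 of these 14 was 1800 bp, which is wide. Of all genes with over 1.4 kb of it, 47.3% had stable state 8, and the part of width was not tested. Alb (albumin), Apoa1 and Apoa2 (apolipoproteins of high-density lipoprotein), the fibrinogen chains Fga, Fgb and Fgg, G6pc (glucose release) and Tat (tyrosine breakdown) had 0 bp of state 8 within 3 kb in each of the 9 strains. In all, 12 of the 15 had none in any strain. Apob, the apolipoprotein of very low-density lipoprotein, had up to 400 bp in 5 strains, Apoh up to 400 bp in 2 and Pck1, of glucose synthesis, 200 bp in 1. The window of 1 to 3 kb downstream, where stable state 8 peaked genome-wide, was in state 1 in 54.8% ± 5.09 of bins and in state 3 in 43.5% ± 5.29 at these genes (SD, n = 9 strains). State 8 took 0.126% ± 0.251 of it, against 13.7% ± 2.21 at all protein-coding starts. Within 5 kb of either end, 1 of the 20 genes on the list, Apoh, had a stable state 8 bin, against 39.6% of all protein-coding genes.

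By the main rule, listed genes needed in every cell type had the regions about as often as all genes with state 3. Of 15 such genes with a listed start, 15 had stable state 3 and 10 had stable state 8, which is 66.7% against 67.3% of all genes with state 3. Sdha, a subunit of succinate dehydrogenase, had 3200 bp, 1800 bp downstream and 1400 bp upstream, and the strains ranged from 3000 to 3800 bp. Emc7, of the membrane protein insertion complex of the endoplasmic reticulum, had 2400 bp, with strains from 1600 to 2600 bp. Tbp (TATA-binding protein) had 1400 bp, all downstream, and Ppia (cyclophilin A) and Polr2a (the largest subunit of RNA polymerase II) 1200 bp each, also downstream.

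Some of these genes carried state 8 without a stable bin. The other genes with a region were Rplp0 (ribosomal stalk) and Chmp2a (membrane scission) with 400 bp each, and Rpl13a (ribosome), Vcp (protein unfolding) and Snrpd3 (spliceosome) with 200 bp each. Psmb4, of the proteasome, had state 8 in 9 strains, from 200 to 1600 bp with a median of 1000 bp, yet no bin shared by 7. Eef2, a translation factor, had it in 6 strains, Eef1a1 and Gpi1 in 3 and Gapdh in 1. With a strain left out and 7 of the remaining 8 required, 5 to 8 of the 15 genes had a stable bin: 5 without A/J, C57BL/6J or NOD/ShiLtJ, and 6 without DBA/2J or WSB/EiJ. With all 9 strains required it was 5. Over all genes, the count of 5974 became 5288 to 5540 with a strain left out and 3975 with all 9 required. The likeness to all genes with state 3 thus holds for the main rule and was not tested under these settings. State 8 filled 36.7% ± 8.57 of the downstream window at the genes needed in every cell type, state 1 46.1% ± 6.35, and state 3 2.56% ± 1.204.

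Transcription factors of the hepatocyte lay between. Of 19 with a listed start, 18 had stable state 3 and 4 had stable state 8 (21.1%). Foxa3 had 800 bp and Esrra 400 bp, both upstream, with state 8 in 9 of 9 strains and strain values of 400 to 1200 bp and 200 to 1200 bp. Foxa2 had 200 bp upstream and Nr5a2 200 bp downstream, in 7 and 8 strains within the window. Hnf4a and Foxa1 had state 8 in 9 strains, from 200 to 1400 bp, but at places that fewer than 7 shared. Cebpa, Cebpb, Ppara, Rxra and Xbp1 had 0 bp in every strain. The count was 2 without A/J, C57BL/6J, NOD/ShiLtJ, NZO/HlLtJ or PWK/PhJ, and 0 within 2 kb of the start.

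Developmental regulators that are silent in liver and markers of other liver cells had no stable state 8 bin within 3 kb of a listed start. Stable state 8 was absent within 3 kb of the starts of 14 developmental genes, 7 endothelial, 7 Kupffer and leukocyte, and 6 bile duct and stellate marker genes. The share over all genes was 36.3%. State 8 was absent there in every strain at 13, 4, 6 and 3 of these genes. Among the others, Reln and Egfl7 had state 8 in 8 strains, Cd68 in 7 and Spp1 in 6, without a stable bin in this window. Within 5 kb of either end of the gene, Cd68 and Gata4, which has no listed start, had a stable bin. Stable state 3 was present at 0 of the developmental genes. State 13 covered 73.3% ± 4.95 of the downstream window of the developmental genes. As a check of the labelled cell type, stable state 3 stood at 14 of 15 hepatocyte genes, all but Cyp2e1. The counts were 2 of 7 endothelial, 1 of 7 Kupffer and leukocyte, and 1 of 6 bile duct and stellate genes. The marks that define state 3 are not given, so these counts describe the state calls and not expression.

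**Figure D3:**
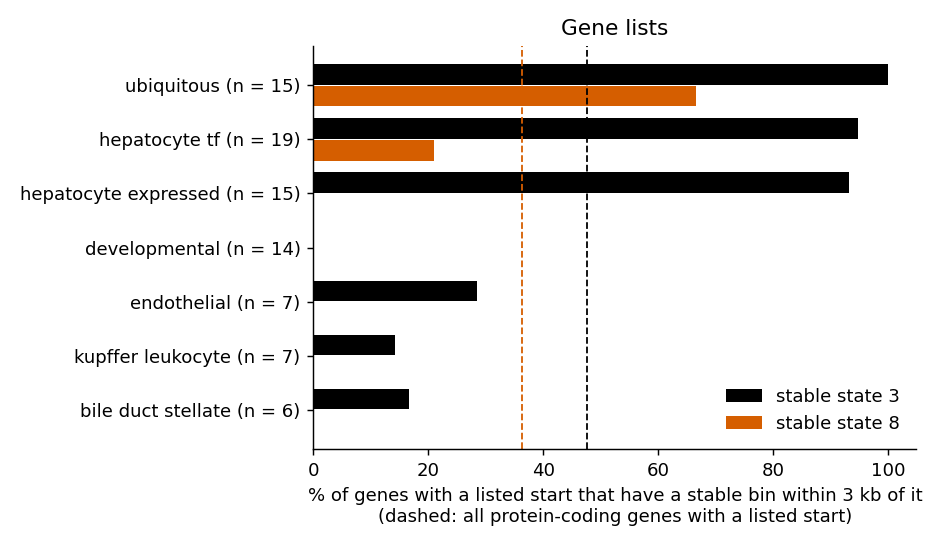
Percentage of the genes of each list that have stable state 3 (black) or stable state 8 (orange) within 3 kb of a listed start, with all protein-coding genes as dashed lines (47.7% and 36.3%). Hepatocyte-expressed genes reach 93.3% for state 3 and 0% for state 8, and ubiquitous genes 100% and 66.7%.

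The following gene families were chosen after their values were seen, and their counts are a description that supports nothing else; the shares over all genes are 36.3%, and 67.3% of genes with state 3. Stable state 8 lay within 3 kb of a start at 47 of 57 ribosomal protein genes, 27 of 31 proteasome subunit genes, 33 of 40 complex I subunit genes and 18 of 22 Mediator subunit genes. It did so at 228 of 325 genes named as zinc finger proteins, where 206 of the 249 with state 3 had it. Cytochrome P450 genes had it in 7 of 77 cases and in 3 of the 20 with state 3. Serpin genes, among them the plasma protease inhibitors, had it in 3 of 53, olfactory receptor genes in 0 of 938 and Hox genes in 0 of 22.

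Of the 5 longest regions, 4 lay inside genes. The longest, chr13:21169201-21174000 (4800 bp), lay in no protein-coding gene, 5.93 kb upstream of the nearest listed start of Trim27, a ubiquitin ligase. Its whole length was in state 8 in 6 strains, and PWK/PhJ had the least, 3000 bp. The other 4 of the top 5 lay inside genes, downstream of the start, with their nearer edge 1.68 to 2.38 kb from it. They were chr11:6470001-6474400 in Purb (a single-stranded DNA binding protein), chr13:111483401-111487800 in Gpbp1 (a binder of GC-rich promoters), chr16:17454201-17458400 in Crkl (a signalling adaptor) and chr11:52101201-52105200 in Ppp2ca (the catalytic subunit of protein phosphatase 2A). Their lengths were 4400, 4400, 4200 and 4000 bp. The strain with the least carried 3400, 3200, 2400 and 1800 bp of them in state 8 (129S1/SvImJ, CAST/EiJ, 129S1/SvImJ and PWK/PhJ), and in these strains the other bins were in state 1, and also in state 2 in PWK/PhJ.

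Counting all regions inside a gene or within 5 kb of it, 8768 of 20661 protein-coding genes held member bases. The most were at Cyp2c29, a cytochrome P450 of drug metabolism, with 8000 bp in 8 regions. None of it lay within 3 kb of its start, 6 of the regions began 4.16 to 14.6 kb into the gene, and strains had 5600 bp (PWK/PhJ) to 19400 bp (NOD/ShiLtJ) of state 8 there. Cyp2c29 belongs to a cluster of near-identical genes, so reads could be split among copies and its value is uncertain. The next were Cul3 (a scaffold of ubiquitin ligases), Gpbp1 and Rabgap1 (a Rab GTPase-activating protein) with 7000 bp each, Relch (cholesterol transport) with 6800 bp, Chd8 (a chromatin remodeller) with 6400 bp and Stx5a (a Golgi syntaxin) with 6200 bp. Zbtb26 (a zinc finger protein) had 6000 bp, and Pcmt1 (protein repair) and Ranbp6 (an importin) 5800 bp each. Rabgap1 and Zbtb26 are neighbours, so with 5-kb flanks the same regions can count for both. PWK/PhJ had the least state 8 at 8 of the 10 genes and WSB/EiJ at the other 2.

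Among 1507 genes with at least 3 regions, Ranbp6 had the most member bases per kb of gene and flanks, 390 bp, followed by Chchd1 (mitochondrial ribosome) at 333 bp, Isca2 (iron-sulfur cluster assembly) at 320 bp and Rpl24 (ribosome) at 303 bp. Thap1 (a transcription factor), Zbtb26, 1700092M07Rik, Shld3 (DNA end protection) and Zrsr1 (a splicing factor) lay between 276 and 288 bp. At Ranbp6, 1600 of 5800 bp lay within 3 kb of its own start and 5200 bp within 3 kb of any start, the neighbour being 9930021J03Rik. At 1700092M07Rik, a neighbour of Stx5a and Wdr74, these were 800 and 2800 of 3000 bp. At Zrsr1, a neighbour of Commd1, they were 600 and 2000 of 4000 bp. Thap1, whose own start is not in the table, had 0 of its 4600 bp within 3 kb of a listed start.

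Not all regions lay near a listed start. Of 12036 regions on the chromosomes with starts, 3068 (25.5%) were over 10 kb from one. Of these, 1177 lay within 3 kb of an end of a protein-coding gene whose start is not in the table, and 971 of them (82.5%) had stable state 3 within 3 kb. Another 200 lay near the start of a long non-coding RNA. The remaining 872 inside genes and 819 outside had stable state 3 within 3 kb in 20.8% and 13.9% of cases, against 90.8% of regions within 3 kb downstream of a start. Their neighbours were state 1 in 41.5% ± 9.57 and 31.5% ± 5.77 of cases, state 6 in 34.1% ± 7.75 and 32.6% ± 5.22, and state 9 in 11.05% ± 3.60 and 15.02% ± 3.64 (SD, n = 9 strains). The median length was 400 bp over 10 kb from a start and 600 bp within 3 kb downstream.

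Within each strain, shared and restricted bins of state 8 differed in where they lay. Shared bins lay in gene bodies more than 1 kb from a listed start in 73.3% ± 0.719 of cases and restricted bins in 59.1% ± 7.53 (SD, n = 9 strains), higher in 9 of 9 strains by 14.2 points (exact sign-flip permutation test, adjusted p = 0.0052). Only 81.7% of protein-coding genes on these chromosomes had a listed start. Bins inside the other genes count as gene body even where they lie at the start. More than 5 kb from any gene lay 4.43% ± 0.0760 of shared and 18.6% ± 5.19 of restricted bins, a difference of -14.1 points (9 of 9 strains, exact permutation adjusted p = 0.0052). Within 1 kb of a listed start the shares were 15.8% ± 0.597 and 11.7% ± 3.82, higher by 4.04 points in 8 of 9 strains (exact permutation adjusted p = 0.016). Without PWK/PhJ this difference was 2.73 points and did not pass (exact permutation adjusted p = 0.0625). With a window of 2 kb the start class was higher by 27.8 points and the gene body class lower, at -9.91 points; the wider window takes in the downstream peak at 1.4 kb.

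Flanking states differed too. The bins beside shared segments were in state 9 in 32.7% ± 4.05 of cases and beside restricted segments in 21.0% ± 4.43 (SD, n = 9 strains), higher in 9 of 9 strains by 11.6 points (exact sign-flip permutation test, adjusted p = 0.010). State 6 was lower in 9 of 9 strains, with a difference of -9.66 points, at 12.0% ± 3.48 against 21.6% ± 4.02 (exact permutation adjusted p = 0.010). State 14 was lower in 8 of 9 strains, at 4.10% ± 1.24 against 6.94% ± 2.53 (exact permutation adjusted p = 0.015). State 1 was the commonest flank of both, 47.6% ± 2.09 and 43.3% ± 3.66, and its difference of 4.28 points (8 of 9 strains, exact permutation adjusted p = 0.046) did not pass when any strain other than A/J was left out, with values of 3.09 to 4.32 points and exact permutation adjusted p from 0.051 to 0.13. State 3 stood beside 2.29% and 2.30% of them, with no detectable difference (exact permutation adjusted p = 0.99). With segments of 1 bin left out, the differences were 16.3 points for state 1, 16.2 for state 9, -23.1 for state 6 and -5.22 for state 14, and all 4 passed (exact permutation adjusted p = 0.0073 each).

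How often a strain joined the others was measured with that strain held out. Bins in state 8 in at least 7 of the other 8 strains were in state 8 in the strain itself in 86.8% ± 8.71 of cases (SD, n = 9 strains), where state 8 covers 0.686% ± 0.201 of bins. A/J was highest at 95.6%, the median was 87.0% and PWK/PhJ lowest at 67.0%. The same measure was 93.6% ± 3.38 for state 1, 85.7% ± 19.9 for state 9 and 84.9% ± 6.47 for state 6. The difference of state 8 from state 1 was -6.84 points, lower in 8 of 9 strains, which did not pass the threshold (exact permutation adjusted p = 0.065, over 10 states compared). It passed without A/J, at -7.77 points (exact permutation adjusted p = 0.039). The differences from states 6 and 9 were 1.83 and 1.04 points with SDs of 4.63 and 12.6 (exact permutation adjusted p = 0.48 and 0.95). PWK/PhJ decided the sign of the latter, since only 33.6% of its held-out state 9 bins were in state 9, and without it the difference was -2.27 points. Of the 10 states, state 14 alone differed past the threshold, at 96.4% ± 1.81, and state 8 was lower in 9 of 9 strains, with a difference of -9.63 points (exact permutation adjusted p = 0.039). State 14 had 8292946 to 8402951 held-out bins, of 12313718 autosomal bins, and state 8 had 26482 to 31706. A match by coverage alone is thus far likelier for state 14, and the part of coverage in the difference was not tested.

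**Figure D4:**
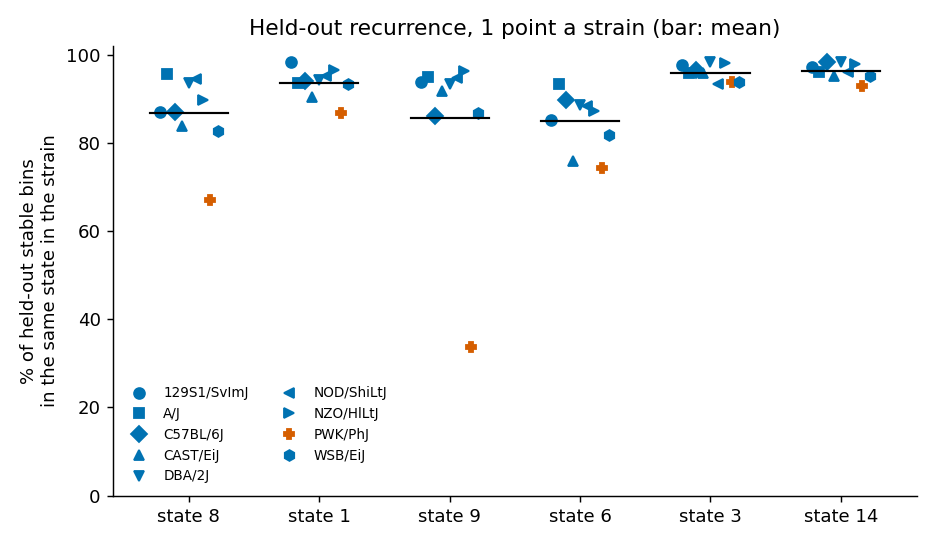
Percentage of held-out stable bins that the strain carries in the same state (y axis), 1 point a strain and the mean as a bar, for 6 states. State 8 runs from 67.0% in PWK/PhJ (orange) to 95.6% in A/J, and PWK/PhJ is at 33.6% for state 9.

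Strains differed in how much of the stable set they lacked. On average 10.4% ± 7.62 of the member bins were outside state 8 in a strain (SD, n = 9 strains), where the rule allows 2 strains of 9 at each bin. A/J lacked 3.15%, NOD/ShiLtJ 4.01%, DBA/2J 4.68% and NZO/HlLtJ 7.52%. 129S1/SvImJ lacked 9.83%, C57BL/6J 9.85%, CAST/EiJ 12.5%, WSB/EiJ 13.7% and PWK/PhJ 28.1%. NOD/ShiLtJ and A/J, which lacked the least, had 1.02% and 0.926% of all their bins in state 8, and PWK/PhJ had 0.438%, the lowest. The order was not the same throughout, since CAST/EiJ had 0.696% in state 8 and 129S1/SvImJ and C57BL/6J 0.550% and 0.492%. The mean share outside was 4.88% when a match in the same or an adjacent bin was counted. It was 5.23% to 6.02% with a strain left out, where asking for 7 of 8 strains allows 1 strain outside at each bin.

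The state found in place of state 8 also differed by strain. Over all strains it was state 1 in 45.2% of cases, state 6 in 25.5% and state 9 in 20.7%. In 129S1/SvImJ it was state 1 in 84.6% of its 3659 bins outside. In PWK/PhJ it was state 6 in 51.2% of 10462 bins and state 1 in 24.7%. Without PWK/PhJ, state 6 made up 14.5% and state 1 54.0% of the strain values outside state 8. PWK/PhJ was the sole strain outside at 4402 of the 11614 bins in 8 strains (37.9%). At bins in 7 strains the commonest absent pair was PWK/PhJ with WSB/EiJ (18.5%), then CAST/EiJ with PWK/PhJ (10.5%), C57BL/6J with PWK/PhJ (6.76%), 129S1/SvImJ with PWK/PhJ (5.70%) and NZO/HlLtJ with PWK/PhJ (4.53%). CAST/EiJ with WSB/EiJ, the pair of wild-derived strains without PWK/PhJ, came next (3.53%).

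**Figure D5:**
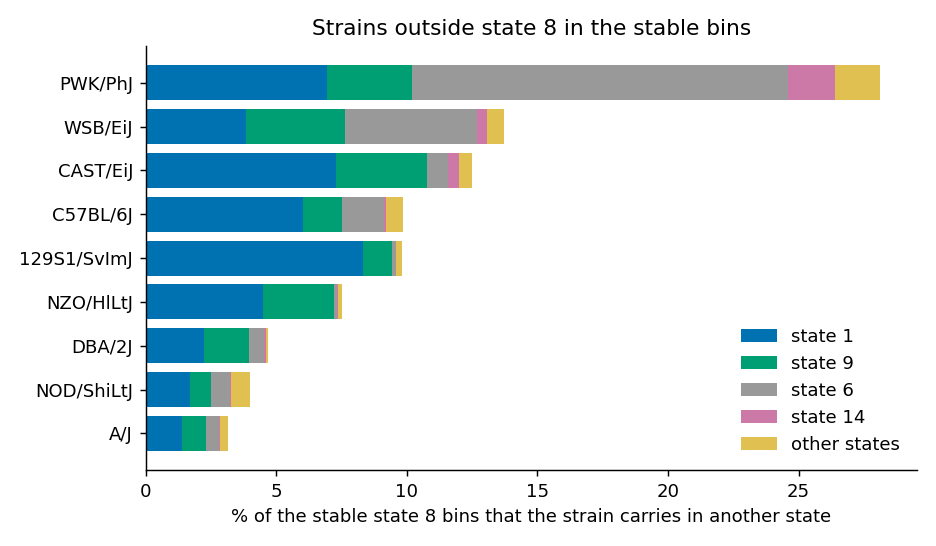
Percentage of the 37219 stable state 8 bins that each strain carries in another state (x axis), split by that state. The bars run from 3.15% in A/J to 28.1% in PWK/PhJ, whose largest part is state 6.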

How the data were processed

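Per the file headers, each of 9 deposited files holds the chromatin states of 1 strain's hepatocytes. The deposited values are categories, state numbers 1 to 14 over intervals that tile each chromosome in 200-bp steps, and not counts or a signal. The build is mm10, and FastQC 0.11.5 and MACS 1.4.2 were used, per the submitters' processing notes. The aligner and segmentation tool are not given in the sources used here, and the depth is unknown. The file of all strains joined was not used.

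Segmentations were written as 200-bp bins of chromosomes 1 to 19 (Python 3.11.15, numpy 2.4.6, pandas 2.3.3). Genes and start sites were from RefSeq tables of GRCm38.p6. Starts on chromosome 18 were not analysed here, and 81.7% of protein-coding genes on the other autosomes had a listed start. As a check of the build, state 3 covered 39.5% ± 1.24 of start bins (SD, n = 9 strains) and 0.776% and 1.18% of bins 10 kb downstream and upstream. Strain values were tested by flipping their signs in every combination (an exact permutation test, 2-sided, 512 sign patterns, smallest p 0.0039; 0.0078 with 8 strains) with Benjamini-Hochberg adjustment and a threshold of 0.05. The flanking test covered 13 states and the held-out test the 10 states with at least 1000 held-out bins in every strain. Strains share ancestry, and shared bins are nearly the same bins in each strain, so p-values describe consistency over these 9 strains only. The code was tested on simulated data with planted regions and recovered them.

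The members and lists were chosen with earlier results of these data known. Of 110 genes in 7 lists (hepatocyte-expressed, hepatocyte transcription factor, ubiquitous, developmental, endothelial, Kupffer and leukocyte, bile duct and stellate), 108 were found on autosomes and 83 had a listed start. The genes named are those of the 5 longest regions, the 10 with the most member bases inside or within 5 kb, the 10 with the most per kb among those with at least 3 regions, and the list genes; 1 gene of these is not reported here. The 3-kb window, the downstream against upstream test, the neighbour order, the gene families and the classes of starts were chosen after the data were seen.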

Additional observations from a re-analysis of the deposited data

Results flagged for a closer look

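Over 21 sets of 9 strain values, 6 had a strain set apart from the others by more than the 95% critical value of Dixon's test, where chance gives about 1 in 20. In each of the 6 the strain was PWK/PhJ, and the 6 sets are related measures. Its held-out recurrence of state 8 was 67.0%, next to 82.7% in WSB/EiJ. It had 28.1% of the stable bins outside state 8, next to 13.7% in WSB/EiJ. It had 14.4% of the stable bins in state 6 and 1.79% in state 14, next to 5.07% in WSB/EiJ and 0.430% in CAST/EiJ. Its held-out recurrence of state 8 was 33.4 percentage points above that of state 9, next to 0.963 points in C57BL/6J. Its downstream to upstream ratio of shared bins was 2.87, next to 2.92 in NZO/HlLtJ, a small gap in a narrow range.

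Chromosome X, which the member rule leaves out, held 24 regions by the same rule, 0.140 per Mb against 5.04 per Mb on the autosomes. They had a median length of 400 bp. The mice were female, and the difference from the autosomes was not tested.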

How the results depend on the processing

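Across 318 alternative values of 26 results, 288 stayed within the limits set for them: direction and side of the threshold for a test, 1.5 times for a count, and 1 SD between strains for a value with no test. The last limit is wide for the mean share of stable bins outside state 8, which was 10.4% and became 4.88% with a match within 1 bin and 5.23% to 6.02% with a strain left out. Requiring all 9 strains gave 5976 regions, 1885 genes within 1 kb of an end and 3975 genes within 3 kb of a start, and leaving out regions of 1 bin gave 7886 regions. With a window of 5 kb, 8188 genes had a region near an end. Leaving out a strain while still asking for 7 strains gave 9702 to 10970 regions. The difference in held-out recurrence from state 1 ran from -8.27 to -7.04 points when a strain was left out and passed only without A/J. It was -3.02 points with a match within 1 bin. That from state 9 ran from -2.27 to 1.53 points with a strain left out and changed sign only without PWK/PhJ. With a strain left out, the excess of shared bins within 1 kb of a listed start ran from 2.73 to 4.16 points and did not pass without PWK/PhJ. The gene body difference turned to -9.91 points with a window of 2 kb. The difference more than 5 kb from any gene was -8.92 points with all annotated genes. With a strain left out, the excess of state 1 beside shared segments ran from 3.09 to 4.32 points and passed in 1 of 9 cases, without A/J. It passed under the other 3 alternatives, at 4.77 points with all of the other 8 strains required, 4.38 with chromosome X added and 16.3 with segments of 1 bin left out. Leaving out segments of 1 bin also moved state 6 to -23.1, state 14 to -5.22 and state 2 to -2.68 points. The downstream to upstream difference ran from 0.86 to 1.91 (log2) and passed under all 11 alternatives. No paired analysis was possible because each strain's mice are combined in 1 segmentation, so no replicate numbers could serve as a block across strains; the differences within strains are the comparisons reported. Depth behind the segmentations is unknown, so its part in a strain's missing states was not tested.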
